A study of Mus musculus with 2 samples.

Results

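Mature neutrophils marked by Retnlg, the gene of the secreted resistin-like molecule gamma, were picked out cell by cell in single-cell RNA sequencing of dissociated mouse lung. A cell past the filter on depth and mitochondrial share counted as a member when at least 4 of the 7 genes Retnlg, Cxcr2, Il1r2, Hdc, Mmp9, G0s2 and Acod1 gave a UMI (a molecule counted once by its molecular identifier), with Retnlg among them. It also needed at least 20 UMIs of S100a8 and S100a9 together and 0 UMIs of Cd3e, Cd79a, Mertk and Ptprb, which mark T cells, B cells, macrophages and endothelium. Of 29837 cells past the cell filter, 1158 were members, 1146 of 19342 in the library labelled GFI1 WT and 12 of 10495 in the library labelled GFI1 KO.

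The study compared total lung cells, sorted as live, of adult wild-type mice with those of mice carrying a germline deletion of Gfi1, which encodes a transcriptional repressor needed for granulocyte development. No treatment or challenge is named for either library, both carry the word ctrl in their library names, and the study kept its mice on the C57BL6/J background. Because the deletion is present in every cell of the body, an effect inside neutrophils and one in other tissues cannot be told apart here. The study's methods describe duplicates for each genotype. One library of each label, taken from a mouse numbered 1, was analysed and the duplicates were not analysed here, so genotype and library cannot be told apart and no difference between the labels was tested. Gfi1 itself did not check the labels: it was at 3.56 CPM (UMIs per 1000000 UMIs) in the non-member cells labelled GFI1 WT and at 3.61 CPM in those labelled GFI1 KO, and a deletion can leave transcript that is still counted. The members held 4 Gfi1 UMIs under the WT label and 1 under the KO label. Of all called barcodes, 74 occurred in both libraries, 2 of them WT-labelled members and none of them KO-labelled members.

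Neutrophils are short-lived granulocytes that leave the bone marrow, patrol the blood and collect in the vessels of the lung. Their granule proteins are made in order during maturation: primary (azurophil) granule enzymes at the promyelocyte stage, secondary (specific) granule proteins at the myelocyte stage and tertiary (gelatinase) granule proteins late. Mature cells carry the surface protein Ly-6G in the mouse, answer the chemokine receptor CXCR2 and the growth factor G-CSF, and no longer divide.

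Sequences before the start sites of 4 genes that the results turn on are given here, since C/EBP factors and PU.1 drive granulocyte genes and GFI1 binds a short AAATCA core. Each stretch runs from 250 bases before to 50 bases after the start site in RefSeq (GRCm38.p6, not the GRCm39 build of the counts), 5′ to 3′ on the strand of the gene, with capitals for matches on either strand to TTGCNNAA (C/EBP) or GAGGAAGT (PU.1). Retnlg lies at chr16:48872358-48872657 on the plus strand, S100a9 at chr3:90695672-90695971 on the minus strand, Ngp at chr9:110419558-110419857 on the plus strand, and the first of 2 Ly6g entries at chr15:75155011-75155310 on the plus strand.
Retnlg: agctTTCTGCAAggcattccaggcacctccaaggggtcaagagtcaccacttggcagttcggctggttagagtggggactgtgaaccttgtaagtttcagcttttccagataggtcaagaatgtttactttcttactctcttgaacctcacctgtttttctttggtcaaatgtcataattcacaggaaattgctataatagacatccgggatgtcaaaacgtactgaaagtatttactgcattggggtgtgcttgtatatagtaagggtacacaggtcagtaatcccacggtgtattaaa
S100a9: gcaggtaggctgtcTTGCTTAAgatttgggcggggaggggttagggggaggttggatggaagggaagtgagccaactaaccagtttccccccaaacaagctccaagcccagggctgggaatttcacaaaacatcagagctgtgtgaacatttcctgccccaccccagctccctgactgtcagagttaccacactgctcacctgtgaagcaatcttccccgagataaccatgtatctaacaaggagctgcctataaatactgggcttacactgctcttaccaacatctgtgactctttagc
Ngp: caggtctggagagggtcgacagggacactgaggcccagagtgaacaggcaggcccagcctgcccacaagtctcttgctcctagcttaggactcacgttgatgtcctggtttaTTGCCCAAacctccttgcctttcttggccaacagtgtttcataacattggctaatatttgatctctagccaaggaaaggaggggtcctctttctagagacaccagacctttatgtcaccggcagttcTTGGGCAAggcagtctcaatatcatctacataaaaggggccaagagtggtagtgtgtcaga
Ly6g: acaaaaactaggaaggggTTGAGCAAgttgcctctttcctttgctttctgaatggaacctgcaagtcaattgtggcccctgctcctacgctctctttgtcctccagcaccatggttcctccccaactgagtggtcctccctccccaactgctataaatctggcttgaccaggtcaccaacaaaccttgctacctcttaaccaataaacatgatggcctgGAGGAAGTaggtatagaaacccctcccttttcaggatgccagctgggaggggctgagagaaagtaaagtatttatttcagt
The Retnlg and S100a9 stretches held 1 C/EBP match each, Ngp, a secondary granule gene, held 2, and Ly6g held 1 C/EBP and 1 PU.1 match. Among 8 of the 9 genes of the rule with a sequence entry (Mmp9 had none), 2 held a C/EBP match, 1 (S100a8) a PU.1 match and 1 (Hdc) the GFI1 core. Of other genes scanned but not shown, Csf3r and Camp held no match to any of the 3 motifs. Lcn2 held 1 C/EBP match, and Ltf 1 C/EBP match and 1 GFI1 core. Over all 32851 promoters of the same length the shares were 10.8% for TTGCNNAA, 3.2% for GAGGAAGT and 14% for AAATCA. The 3 motifs do not contain each other, and a match describes letters only.

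Members made up 5.92% of the cells labelled GFI1 WT (95% exact Clopper-Pearson interval 5.6 to 6.27) and 0.114% of those labelled GFI1 KO (0.0591 to 0.2). WT-labelled cells thus held 5.81 points more (5.47 to 6.16), a ratio of 51.8. These intervals, like all others here, cover counting error in 1 library each and not the spread between mice. Among cells with a Ptprc UMI, the pan-leukocyte gene for CD45, the shares were 6.81% and 0.118%.

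The criterion that separated the libraries most was Retnlg itself. A Retnlg UMI was present in 1706 cells labelled WT and 26 labelled KO. Requiring 4 of the 7 genes left 1486 and 15, the S100a8 and S100a9 minimum left 1433 and 13, and the exclusion genes left 1146 and 12. Dropping only the demand for Retnlg gave 1348 cells labelled WT and 110 labelled KO, so 98 KO-labelled cells met every other criterion without a Retnlg UMI.

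**Figure D1:**
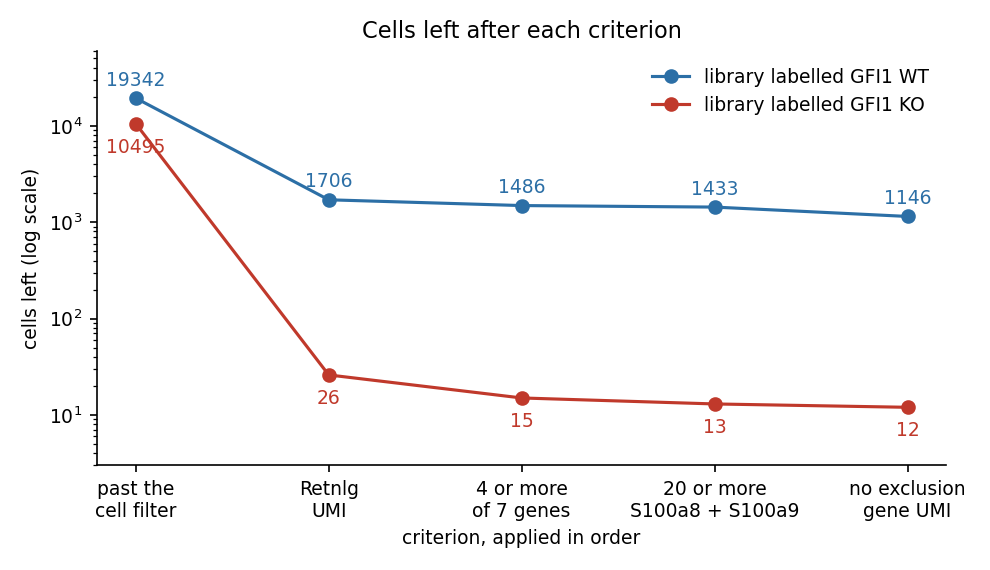
Number of cells left (vertical log axis) after each criterion of the rule, applied in order (horizontal axis), for the library labelled GFI1 WT (blue) and the library labelled GFI1 KO (red). The red line drops from 10495 cells to 26 at the Retnlg criterion, while the blue line goes from 19342 to 1706.

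The 98 KO-labelled cells that lacked only Retnlg differed in other readouts from the 202 such cells labelled WT. Csf1r, the receptor of the macrophage growth factor, gave a UMI in 90 of the 98 (91.8%) and in 58 of the 202 (28.7%). The antibody tag against Ly-6G reached 30 UMIs on 2 of the 98 (2.04%, median 2) and on 194 of the 202 (96%, median 213). Their depths also differed, with a median of 14859 gene UMIs against 2734. Of the 98, 75 met the rule for classical monocyte-type cells (Csf1r, at least 3 of Ly6c2, Ccr2, F13a1, Vcan, Ms4a4c and Fn1, and no Retnlg) and 14 the rule for granule-gene cells (at least 4 of 10 granule genes, Camp, Ngp, Ltf, Elane, Mpo, Prtn3, Ctsg, Ms4a3, Fcnb and Cebpe). Both sets also required 0 UMIs of the 4 exclusion genes and left members out, and the monocyte set left out granule-gene cells.

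In the WT-labelled library all 7 genes were seen in 724 members, 6 in 321, 5 in 85 and 4 in 16, and only 5 cells that met the other criteria had 3. The Ly-6G tag median was 259.5 UMIs on members with all 7 genes, 216 on those with 4 and 281 on the 5 cells with 3. Between 20 and 29 UMIs of S100a8 and S100a9 there were 17 members, and between 10 and 19 there were 20 cells that met all else. The exclusion genes removed 287 cells, of which 282 (98.3%) carried the Ly-6G tag. A Mertk UMI was present in 146 of these, Ptprb in 139, Cd79a in 54 and Cd3e in 27, and their median depth was 9161 UMIs against 3118 in the members.

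WT-labelled members were shallow cells. They held a median of 3118 gene UMIs (quartiles 2484 and 3916, range 546 to 30936) in 1128 genes, with 0.207% mitochondrial UMIs. The other cells of that library had a median of 6517 UMIs and classical monocyte-type cells 8927. The 12 KO-labelled members were deeper, at a median of 15760 UMIs (7661 to 32947), 3000 genes and 1.35% mitochondrial UMIs. Levels are therefore given as CPM of summed UMIs, 4374632 gene UMIs for the 1146 members and 201575 for the 12, leaving out ribosomal, mitochondrial and Gm genes. A 3′ UMI stands for 1 captured transcript whatever its length.

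The antibody tag for Ly-6G, which the rule did not use, was high on the WT-labelled members, as the name neutrophil has it. It had a median of 248.5 UMIs per cell (quartiles 177 and 336.8) and reached 30 UMIs on 1130 of 1146 members (98.6%, 97.7 to 99.2). On classical monocyte-type cells of the same library the median was 1 and 1.64% reached 30, and the isotype control tags had medians of 3 and 0 on the members. Ly6g transcript was far sparser, at 176 UMIs in all (42.9 CPM, 36.8 to 49.7), and was seen in 4.31% of members thinned to 1000 UMIs.

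The 12 KO-labelled members mostly lacked this tag at 30 UMIs, and 7 of them held transcripts of Ngp, a gene of immature neutrophils. The name mature neutrophil thus rests for them mainly on the rule. Ly6g transcript, which the rule did not use, was at 33.6 CPM (12.3 to 73.1) in them, from 6 UMIs. It was at 42.9 CPM in the WT-labelled members and at 0.107 CPM in the other KO-labelled cells. Their Ly-6G tag counts ran from 0 to 74 with a median of 6, and 1 of the 12 reached 30 (8.33%, 0.211 to 38.5). At a threshold of 10 tag UMIs, 5 of the 12 carried it (41.7%, 15.2 to 72.3). On classical monocyte-type cells of the KO-labelled library the median was 1, and 55 of 4308 reached 10. CD11b, the integrin alpha M of myeloid cells, had medians of 957 tag UMIs (WT) and 1035 (KO), and CD45 of 661 and 687. Deep WT-labelled members carried the Ly-6G tag: the 85 between 7661 and 32947 gene UMIs, the range of the 12, had a Ly-6G median of 299, and 97.6% reached 30. Only the range was matched, since their median was 10500 gene UMIs against 15760 in the 12. Of the 85, 19 lay outside the member clusters 2 and 4 described below, which carried genes of other cell types. The CD11b median of those 85 was 1683 tag UMIs, above the highest of the 12 KO-labelled members (1481). Library-wide, 1862 WT-labelled cells (9.63%) and 16 KO-labelled cells (0.152%) had at least 30 Ly-6G tag UMIs. Of the 1862, 60.7% were members and 78.9% had a Retnlg UMI, so 732 of them counted among the other cells below. At 100 tag UMIs or more the counts were 1697 and 0, where a floor of 3 counts over the KO-labelled cells is a share of 0.0286% and the exact upper limit of a count of 0 is 0.0351%.

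**Figure D2:**
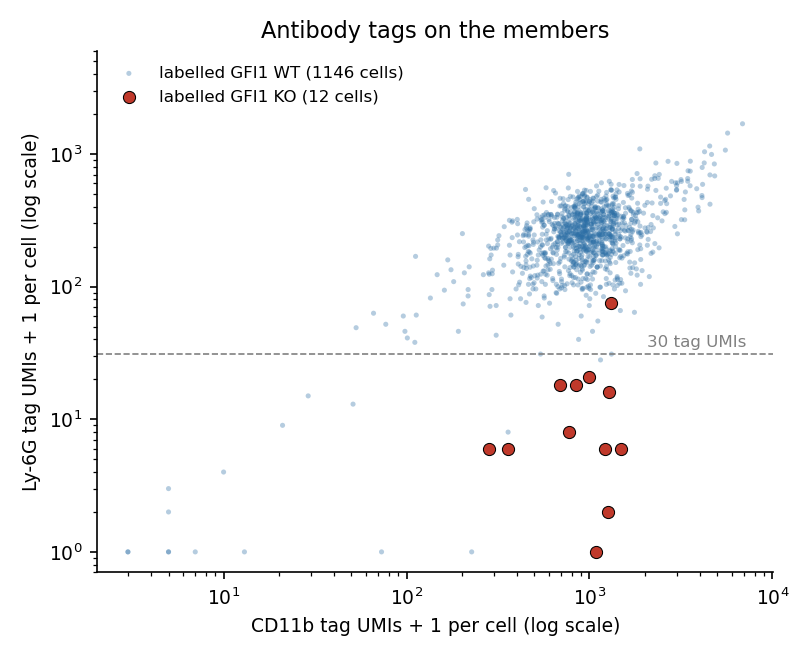
Antibody tag UMIs plus 1 on each member, CD11b on the horizontal and Ly-6G on the vertical log axis, with WT-labelled members in blue, KO-labelled members in red and a dashed line at 30 Ly-6G tag UMIs. The members overlap in CD11b, while 11 of 12 red points lie under the line that 1130 of 1146 blue points reach.

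The 9 genes of the rule are given as a description, since they chose the cells. In WT-labelled members S100a9 (ENSMUSG00000056071) stood at 45575 CPM (45369 to 45782) and S100a8 (ENSMUSG00000056054) at 29252 CPM, the subunits of the calcium-binding protein calprotectin. G0s2, an inhibitor of fat breakdown, was at 5734 CPM, Il1r2, the decoy receptor of interleukin 1, at 5228 CPM, and Retnlg (ENSMUSG00000022651) at 4370 CPM (4306 to 4434). Hdc, which makes histamine, was at 4049 CPM and Acod1, which makes itaconate, at 2264 CPM. Cxcr2 and the gelatinase gene Mmp9 were lowest, at 865.6 and 856.1 CPM. Per cell, Retnlg ranged from 1 to 260 UMIs with a median of 8, S100a9 from 6 to 1093 with a median of 135.5, and Cxcr2 was seen in 89.8% of the cells with a median of 3.

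Against the other cells of the library labelled GFI1 WT, 6.71% of 15779 genes with at least 30 UMIs were at least 2-fold higher in members and 67.4% were at least 2-fold lower, with a median log2 ratio of -1.35. Each list below is read beside those shares, and no list was tested. Secondary granule genes were split. Of 10 with enough UMIs, 6 were higher and 2 lower, with a median log2 ratio of 1.97. Lcn2, an iron-siderophore-binding protein, stood at 645.7 CPM (60.9-fold), Hp, haptoglobin, at 1120 CPM (19-fold) and Olfm4 at 5.84 CPM (36.5-fold). The myelocyte-stage genes Ngp, Camp and Ltf were low in level, at 42.4, 24.1 and 20.9 CPM, and at 7.8, 1.46 and 9.75 CPM once 1 WT-labelled member was left out. With that cell, Ngp was 6.03-fold (5.1 to 7.1) and Camp 2.54-fold (2.05 to 3.12) above the other cells. Without it the ratios of Ngp, Camp and Ltf were 1.11 (0.756 to 1.58), 0.154 (0.0564 to 0.336) and 0.557 (0.397 to 0.76). The list then counted 4 higher and 3 lower of 10, with a median log2 ratio of 0.56. Chil3, a chitinase-like protein abundant in alveolar macrophages, was at 114.2 CPM, 0.0178 times the other cells.

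Primary granule genes were seen unevenly. Mpo, Elane, Ctsg and Ms4a3 had 0 UMIs in the 1146 members, Prtn3 had 10 and Prss57 20 (14.2-fold). Lyz2, lysozyme, was at 1932 CPM, 0.342 times the other cells. Counts over the list were 2 higher and 2 lower of 4 with enough UMIs.

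The tertiary granule and secretory vesicle list was mostly higher, 7 of 9, with 2 lower and a median log2 ratio of 3.14. It also held stefin genes, so its counts are not of granule proteins alone. Slpi, a protease inhibitor, was at 2360 CPM (8.81-fold) and Mmp8, neutrophil collagenase, at 282 CPM (11.6-fold). The stefin genes Stfa2l1 (436.3 CPM, 83.5-fold), Cstdc4 (343.3 CPM, 93.5-fold) and Stfa1 (41.1 CPM, 269.6-fold) were among those higher. Another stefin gene, Stfa2, was at 3.41 CPM (63.8-fold, 24.1 to 186.8). It had 14 UMIs in members and 7 in the other cells, under the minimum of 30, and was not counted. These stefin genes are close copies of each other, so their reads may be split or dropped in counting. Ptx3 was at 0 UMIs.

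Receptors for chemoattractants and growth factors formed the next groups. Of 10 chemoattractant receptors, 7 were higher and 1, C3ar1 with 1 UMI, was lower. Ccr1 (788.2 CPM, 6.93-fold), C5ar1, the receptor of complement C5a (778.7 CPM, 4.6-fold), Ccrl2 (645.2 CPM) and Cxcr4, which holds granulocytes in the marrow (536.2 CPM, 2.87-fold), had the highest levels, and Ptafr, for platelet-activating factor, was 11.7-fold higher. Cxcr1 was at 21.2 CPM (9.61-fold), far under Cxcr2. Of 12 cytokine and growth factor receptors, 5 were higher and 1 lower. Csf3r, the G-CSF receptor, stood at 2219 CPM (2174 to 2265), 37.6-fold above the other cells, and Il1rap, a partner of the interleukin 1 receptor, at 923.8 CPM (12.7-fold).

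Secreted factors were led by 1 cytokine. Il1b, interleukin 1 beta, was at 14788 CPM (14671 to 14906), 21.6-fold above the other cells, and Cxcl2, a ligand of CXCR2, at 5077 CPM (9.3-fold). Ccl6 was at 2055 CPM, 0.912 times the other cells, and Osm, oncostatin M, at 500.9 CPM (2.29-fold). Across the 15 genes, 6 were higher and 2 lower, with a median log2 ratio of -0.07. Il6 and Il10 had 28 and 16 UMIs.

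Genes for sensing microbes were mostly higher, 7 of 12, with 1 lower and a median log2 ratio of 3.1. Clec4d (2326 CPM, 29.5-fold) and Clec4e (948.9 CPM, 17.7-fold) encode C-type lectins, and Pglyrp1 (928.4 CPM, 19.3-fold) a peptidoglycan-binding granule protein. Trem3 (929.4 CPM, 14.4-fold) and Trem1 (1228 CPM, 12.2-fold) encode activating receptors. The inflammasome sensor gene Nlrp3 was at 1670 CPM (8.32-fold), and the lipopolysaccharide co-receptor gene Cd14 at 1489 CPM (8.85-fold). Of 11 Fc and inhibitory receptor genes, 7 were higher and 2 lower, among them Fcer1g, the shared Fc receptor signalling chain (1784 CPM, 2.06-fold), Lilrb4a (623.8 CPM, 3.82-fold), and Cd300ld (553.4 CPM, 14.2-fold).

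Adhesion and NADPH oxidase genes had median log2 ratios of 0.72 and 0.75 to the other cells. Of 13 adhesion genes, 4 were higher and 2 lower. Cd44 was at 2324 CPM (1.22-fold), Alcam at 1380 CPM (4.31-fold) and Selplg, the selectin ligand, at 647.4 CPM (2.36-fold). Of 8 NADPH oxidase genes, 4 were higher and 2 lower, with Cyba at 929.4 CPM (1.18-fold) and Rac2 at 671 CPM (2.63-fold). Nox4, of a different oxidase, had 3 UMIs (0.12 times), and Cybb, the catalytic subunit of phagocytes, was at 234 CPM, 0.266 times the other cells.

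Among 18 transcription factors, 8 were higher and 5 lower. Cebpb was at 5221 CPM (3.55-fold), Junb at 4374 CPM (3.54-fold), Mxd1, a MYC antagonist, at 2442 CPM (16.9-fold) and Fos at 2172 CPM (3.23-fold). Cebpe, the factor of the myelocyte stage, was at 10.2 CPM (20-fold), and Gfi1b had 1 UMI.

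Interferon-stimulated genes had no lower member, and 11 of 16 were higher with a median log2 ratio of 2.43. Ifitm2 stood at 2310 CPM (7.81-fold), Ifitm1 at 1295 CPM (34.1-fold), Ifitm3 at 1042 CPM (1.99-fold) and Isg15, a ubiquitin-like modifier, at 751.4 CPM (18.5-fold). Slfn4 (52.6-fold), Rsad2 (23.7-fold), Slfn1 (13.5-fold) and Oasl1 (10.9-fold) were also past 8-fold.

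Of 14 survival and apoptosis genes, 6 were higher and 3 lower. Pim1, a survival kinase, was at 3082 CPM (5.34-fold), Mcl1, an antiapoptotic protein, at 2000 CPM (3.41-fold), and Birc3 at 987.1 CPM (3.85-fold). Of 10 eicosanoid enzyme genes, 2 were higher and 6 lower. Ptgs2, cyclooxygenase 2, stood at 1919 CPM (27.9-fold) and Alox5ap, the 5-lipoxygenase activating protein, at 1063 CPM (2.99-fold), while Ltc4s and Hpgds, at 4.38 and 0.487 CPM, were at 0.0231 and 0.0533 times the other cells and Alox15 was at 0. Of 10 cell cycle genes 9 were lower, Ccnb1 (0.0406 times), Cdk1 (0.106 times), Birc5 (0.114 times) and Stmn1 (0.122 times) the most, and Hmgb2 was higher at 894.3 CPM (2.43-fold). Of 13 glycolysis and glycogen genes, 5 were higher and 1 lower, with the glucose transporter gene Slc2a3 at 439 CPM (17.3-fold).

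Outside these lists and the rule, 15 genes with high lower bounds of the ratio to the other cells began with Ly6g (151.8-fold, 106 to 222.6). Each of the 15 had at least 52 UMIs in the members. Cstdc5, with 25 UMIs there, was not among them, though its ratio was 132.9 (53.2 to 396.3). Next to it were the stefin gene Csta3 (12.9 CPM), Il36g, an interleukin 1 family cytokine (212.6 CPM, 74.3-fold), and Asprv1, an aspartic protease best known from skin (279.5 CPM, 72-fold). Rdh12, a retinol dehydrogenase, had the highest level of the 15, at 827.9 CPM (49.7-fold), followed by H2-Q10 (383.2 CPM), Asprv1, Nlrp12 (226.9 CPM) and Il36g. Scrg1, Mirt2, Mgam, Myl2, Lhx1, Spatc1, Mrgpra2b and Prps1l1 completed the 15, Myl2 and Lhx1 at only 15.1 and 14.4 CPM. The 10 most abundant genes were S100a9, S100a8, Tmsb4x (17751 CPM), Malat1 (16800 CPM), Il1b, Actb (11034 CPM), Srgn (10662 CPM), Fth1 (8085 CPM), G0s2 and Actg1 (5379 CPM).

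Classical monocyte-type cells of the same library, 365 cells, were the myeloid set used for comparison. Members were at least 2-fold higher at 10.5% and lower at 46.4% of 9038 genes, with a median log2 ratio of -0.90. Ranked by the lower bound of the ratio, Asprv1 (261.2-fold), Mmp9 (300-fold), Cxcr2 (269.7-fold), S100a9 (410.9-fold) and S100a8 (408-fold) were among the 10 highest. The others were Retnlg, which the monocyte rule set to 0, Cstdc4 (192.5-fold), and 3 globin genes described below. Mmp9, Cxcr2, S100a9, S100a8 and Retnlg were genes of the member rule, so their ranks are description only. Among the 10 lowest by the upper bound were the monocyte and macrophage genes F13a1, Vcan, Fn1 and Ms4a4c, which the monocyte rule used, and Ccl24, Clec10a, Fcrls, Msr1 and Retnla. Msr1, a scavenger receptor, was at 7.3 CPM in members and 266.4 CPM in the monocyte-type cells. Some genes of both cell types differed less: Il1b was 4.91-fold higher in members, Ptgs2 4.74-fold and Csf3r 15.2-fold. Of the interferon-stimulated list 4 were higher and 4 lower in this comparison, Ifitm1 at 40.4-fold and Ifitm3 at 0.213 times.

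**Figure D3:**
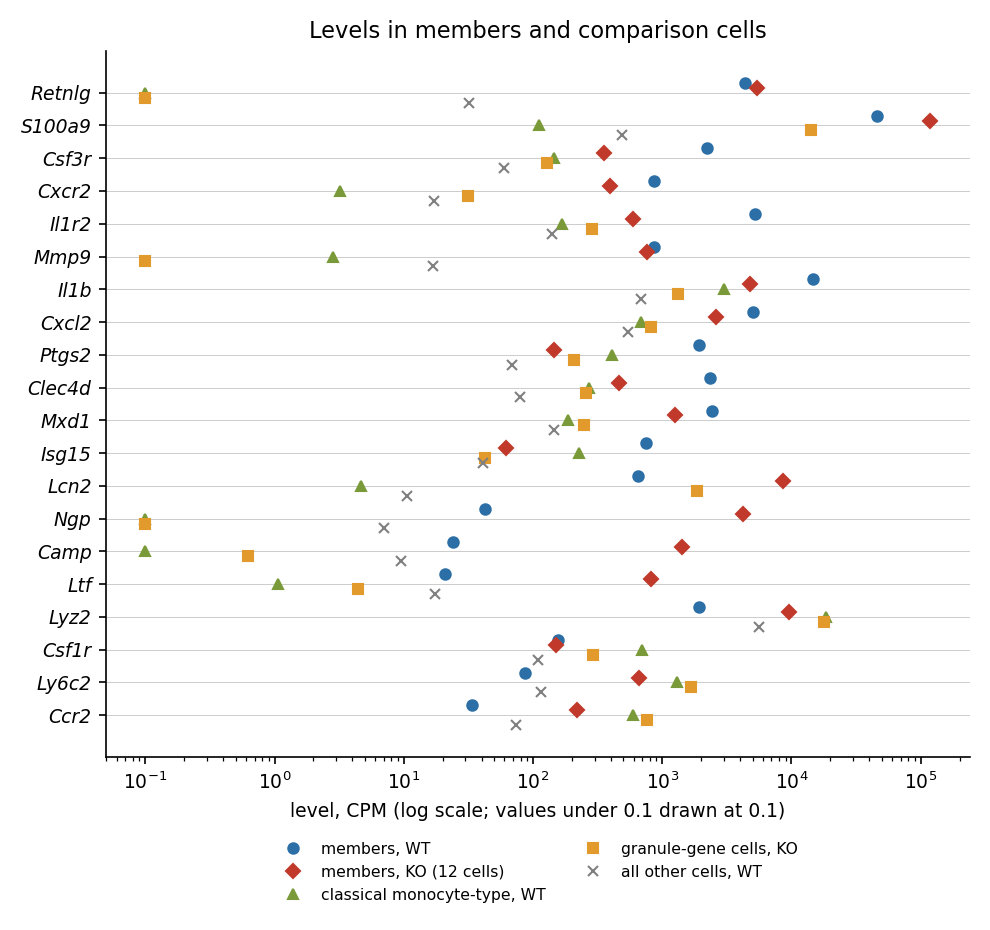
Level of 20 genes (rows) in CPM on a log axis in WT-labelled members, the 12 KO-labelled members, classical monocyte-type cells and all other cells of the WT-labelled library, and granule-gene cells of the KO-labelled library. Il1b, Ptgs2 and Csf3r were highest in WT-labelled members, Lcn2, Ngp, Camp and Ltf in the 12 KO-labelled members, and values under 0.1 CPM, 0 among them, are drawn at 0.1.

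The 12 KO-labelled members fell into cells with and without transcripts of Ngp, Camp and Ltf, while Lcn2, another secondary granule gene, was seen in all 12 (7 to 365 UMIs). Ngp UMIs by cell were 379, 163, 92, 69, 35, 12, 2, 0, 0, 0, 0 and 0, and Camp was seen in 5 cells, at 152, 86, 9, 5 and 2 UMIs. Retnlg UMIs in the same order of cells were 282, 84, 93, 127, 4, 271, 1, 26, 17, 24, 31 and 1. The 2 cells with a single Retnlg UMI thus rested on the threshold, and the cell in the last place, the deepest with 32947 UMIs, also held 4 Elane UMIs, 14 Csf1r UMIs and no Cxcr2, Mmp9 or Ly-6G tag. Of the 12, 5 also held at least 4 of the 10 granule genes (41.7%, 15.2 to 72.3), against 1 of 1146 WT-labelled members (0.0873%).

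**Figure D4:**
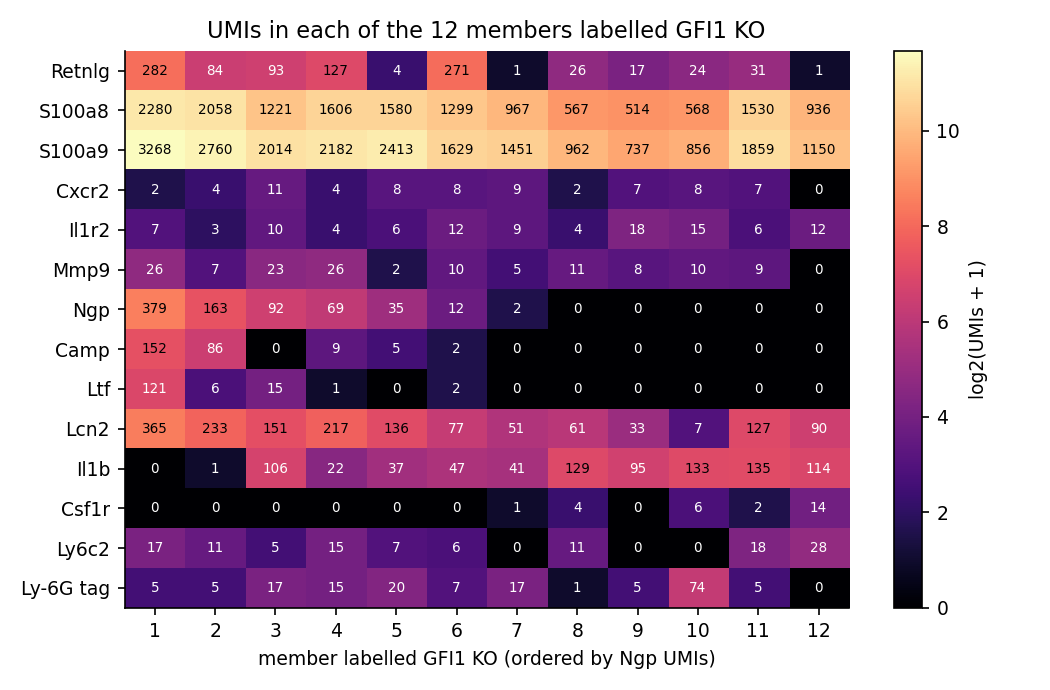
UMIs of 13 genes and of the Ly-6G tag (rows) in each of the 12 KO-labelled members (columns, ordered by Ngp), printed in each box and coloured on a log2 scale of UMIs plus 1. Ngp, Camp and Ltf UMIs lie in the left columns and Csf1r UMIs in the right ones, while S100a8 and S100a9 exceed 500 UMIs in all 12.

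Between the labels, 17.9% of 7034 genes were at least 2-fold higher in the 12 KO-labelled members and 25.1% at least 2-fold lower, with a median log2 ratio of 0.06. These were 1262 genes higher and 1764 lower, against 259 higher and 1591 lower when the 12 were set beside the 85 WT-labelled members of like depth, a comparison chosen after seeing the data. S100a8 and S100a9 were at 84616 and 119048 CPM in the KO-labelled members, 2.89 and 2.61 times the WT-labelled members, whose like-depth cells were at 11523 and 17316 CPM. Retnlg was at 5376 CPM (5041 to 5727) against 4370 CPM, and Mmp9 at 766.4 against 856.1 CPM. Cxcr2 was 0.452 times and Il1r2, at 593 CPM (485.5 to 717.2), 0.113 times the WT-labelled level. Depth moved with these values: in the 85 WT-labelled members of like depth Retnlg was at 1538 CPM, Mmp9 at 369.4 CPM and Cxcr2 at 438.3 CPM, so that Mmp9 was higher and not lower in the KO-labelled members and the counting interval of Cxcr2, at 391.6 CPM (305.3 to 494.7), held the like-depth level. In the 19 of the 85 outside the member clusters 2 and 4 described below, the levels were 2880, 713.9 and 799.4 CPM.

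Secondary granule genes were higher under the KO label, 9 of 10 with none lower and a median log2 ratio of 4.45. Ngp was at 4207 CPM (3911 to 4518) against 42.4 CPM, 99.3-fold (84.1 to 117.8), Camp at 1421 against 24.1 CPM and Ltf at 811.1 against 20.9 CPM. Lcn2 was at 8660 CPM against 645.7 CPM (13.4-fold). A single WT-labelled member, in cluster 5, held 142 of the 174 Ngp UMIs, 93 of the 99 Camp UMIs and 46 of the 86 Ltf UMIs of its label. Without it, a choice made after seeing the data, the ratios were 539.1 (378.6 to 794) for Ngp, 971.2 (440.1 to 2671) for Camp, 83.2 (58.2 to 121.2) for Ltf and 13.7 for Lcn2. In the 103 granule-gene cells of the KO-labelled library Ngp was at 0, Camp at 0.627 CPM and Ltf at 4.39 CPM, while Prtn3 was at 787.4 CPM and Elane at 311.2 CPM. In the 4308 classical monocyte-type cells labelled KO, Ngp stood at 0.0948 CPM, Lcn2 at 483.4 CPM and S100a9 at 1520 CPM. Outside the members, the WT-labelled library held 0 cells that met the granule-gene rule, so members could not be set against such cells there.

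Of the primary granule genes 2 had enough UMIs, and both were higher, Prtn3 at 201.4 against 2.43 CPM, 82.7-fold (40.2 to 186.9), and Lyz2 at 9493 against 1932 CPM. Prtn3 was at 195 CPM in the classical monocyte-type cells labelled KO. The tertiary granule and secretory vesicle list, stefin genes included, was higher under the KO label at 6 of 8. Mmp8 was at 1650 against 282 CPM and the stefin gene Stfa2 at 788.8 against 3.41 CPM. The counts of lower genes that follow stand beside the 25.1% of all genes that were lower. Of the receptors for cytokines and growth factors 4 of 11 were lower and none higher, Csf3r at 352.4 CPM (270.8 to 450.9) against 2219 CPM. Of 9 chemoattractant receptors 5 were lower and 2 higher. Cxcr4 was at 16.8 CPM, from 3 UMIs, against 536.2 CPM, a ratio of 0.0313 (0.00645 to 0.0916). Of the pattern recognition genes 6 of 12 were lower, Clec4d and Nlrp3 at 0.2 and 0.258 times. Of 14 secreted cytokines and chemokines 5 were lower and 2 higher, with Il1b at 4811 against 14788 CPM. Of 6 eicosanoid enzyme genes 1 was lower and 2 higher, with Ptgs2 at 145.4 against 1919 CPM. Of 16 interferon-stimulated genes 7 were lower, Isg15 at 61.5 against 751.4 CPM and Rsad2 with 1 UMI among them. The other direction held for Ifitm1, at 7049 against 1295 CPM, and Ifitm3, at 3032 against 1042 CPM, and the summed level of the list was 14489 CPM against 6963 CPM. Of 14 survival genes 8 were lower and 1 higher.

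Many of these WT-labelled levels differed in the cells of like depth, of which 19 of 85 lay outside clusters 2 and 4. The dendritic marker list summed to 2880 CPM and the natural killer list to 900.1 CPM in the 85, against 134.2 and 0 CPM in the 19. The erythroid list went the other way, at 5762 CPM in the 85 and 31554 CPM in the 19. So did the fibroblast and mural list, at 310.4 and 1550 CPM, so the 19 also held transcripts of other cell types. Against the 85 WT-labelled members of like depth, 5.27% of 4913 genes were at least 2-fold higher in the 12 KO-labelled members and 32.4% at least 2-fold lower. Secondary granule genes were then higher at 8 of 9 and the tertiary list with its stefin genes at 6 of 8, with none lower. Mmp8 was at 91.2 CPM, Camp and Stfa2 at 0 UMIs and Ltf at 10 CPM in the like-depth cells. Of the receptors for cytokines and growth factors 3 of 11 were lower, of the pattern recognition genes 4 of 12 were lower and 3 higher, and of the survival genes 6 of 14 were lower. Csf3r was at 1232 CPM, Il1b at 9193 CPM, Ptgs2 at 1209 CPM, Clec4d at 1313 CPM and Nlrp3 at 1057 CPM in the like-depth cells, all above the KO-labelled levels. Of 13 interferon-stimulated genes 5 were lower and 3 higher, with Isg15 at 436.1 CPM, Rsad2 at 149.1 CPM, Ifitm1 at 502.9 CPM and Ifitm3 at 1654 CPM, and a summed level of 5437 CPM.

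The 19 like-depth cells outside those clusters gave other values, a comparison also chosen after seeing the data. Against them 18% of 1781 genes were at least 2-fold higher in the 12 KO-labelled members and 28.1% at least 2-fold lower. Secondary granule genes were higher at 9 of 9, the tertiary list with its stefin genes at 6 of 7 and primary granule genes at 2 of 2. Of the cytokine and growth factor receptors 4 of 11 were lower and 1 higher, of the pattern recognition genes 5 of 10 were lower and 2 higher, and of the survival genes 6 of 7 were lower. Csf3r was at 2435 CPM, Il1b at 18129 CPM, Ptgs2 at 2185 CPM and Mmp8 at 177 CPM in the 19 cells, and S100a8 and S100a9 at 20478 and 29223 CPM. Of 12 interferon-stimulated genes 6 were lower and 2 higher, with Isg15 at 1068 CPM and Ifitm1 at 775 CPM.

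Further genes were named after their values were seen, by the interval bound nearest to 1. Higher under the KO label were Prok2, a secreted prokineticin (469.9 against 0.243 CPM), Saa3, an acute-phase protein (973.4 against 3.17 CPM), Cstdc5 (1197 against 6.09 CPM), Palld (151 against 1.7 CPM) and Ly6a2 (397.2 against 7.79 CPM). Saa3 and Ly6a2 also had high levels in the classical monocyte-type cells labelled KO, 738.3 and 282.7 CPM. Lower were H2-Q10, at 0 UMIs against 383.2 CPM (a ratio of up to 0.0539 by its exact interval), Vps37b (50.3 against 1015 CPM) and the nuclear receptor gene Nr4a3 (1 UMI against 297.5 CPM).

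Monocyte markers moved with this contrast. Of 9 such genes 6 were higher in the KO-labelled members and 2 lower, with Ly6c2 at 660.1 against 86.4 CPM and F13a1 at 296.5 against 8.28 CPM. Beside the like-depth cells 5 were higher and 3 lower, with F13a1 at 30 CPM there. In the 8 KO-labelled members left after removal of the member clusters 2 and 4 described next, F13a1 was at 70 CPM, Csf1r at 10 CPM, Saa3 at 140.1 CPM, Ngp at 7525 CPM and Lcn2 at 12638 CPM. Il1r2 was then at 690.4 against 5913 CPM and Ptgs2 at 130.1 against 2175 CPM. Against the 85 WT-labelled members of like depth, in which Ngp was at 2.23 CPM, Lcn2 at 182.5 CPM and Il1r2 at 3143 CPM, the directions of Ngp, Lcn2 and Il1r2 were as against all WT-labelled members.

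Clustering of the members alone gave 6 clusters, which are described by their genes with no test, since those genes made them. Clusters 0 (504 cells) and 1 (491 cells) held 43.5% and 42.4% of members, all labelled WT, with Ly-6G tag medians of 247 and 249. Cluster 0 had more Cxcl2 (7874 against 3376 CPM), Nlrp3 (2592 against 1162 CPM), Acod1 (3623 against 1355 CPM) and Icam1, an adhesion ligand (249.7 against 18.1 CPM). Cluster 1 had more Retnlg (6265 against 4024 CPM), Il1r2 (7539 against 4387 CPM) and Slc2a3 (670.4 against 354.1 CPM). Csf3r was alike in both, at 2590 and 2515 CPM. The leading genes of cluster 0 by fold were Hba-a2, Hbb-bs, Hba-a1, Hbb-bt and Grm8, each from at most 1.98% of its cells, whereas Il23a, a subunit of interleukin 23, was seen in 18.8%. Cluster 1 was led by B230208H11Rik, Nt5e, Pip4k2b, Ankrd13c and Cwc25.

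Cluster 3, 57 WT-labelled cells, was led by the interferon-stimulated genes Ifit3 (643.8 CPM), Ifit3b, Ifit1 (556.2 CPM), Rsad2 (1803 CPM) and Usp18. Isg15 was at 3003 CPM there, against 716.9 CPM in cluster 0 and 767 CPM in cluster 1. Rsad2 was seen in 94.7% of its cells.

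Clusters 2 and 4 carried genes of other cell types. Cluster 2 (80 cells, 4 of them KO-labelled) had a median of 10492 UMIs and was led by Adgre4, Cd300e, Pparg, Tmem51 and Stxbp6, with Cd74 at 2444 CPM and Csf1r at 449.1 CPM. Cluster 4 (17 WT-labelled cells, median 9383 UMIs) was led by Klra7, ENSMUSG00000121360, Gzma, Ccl5 and Klra9, genes of natural killer cells among them, with Ccl5 at 8538 CPM. Scrublet, a doublet caller, marked 13.8% of cluster 2 and all 17 cells of cluster 4. Their Ly-6G tag medians were 250 and 217 UMIs, like those of clusters 0 and 1.

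Cluster 5 held 9 cells, 8 of them KO-labelled. It was led by Camp (3279 CPM), Ngp (8449 CPM), Prok2 (746.6 CPM), Ltf (1805 CPM) and Stfa3 (1134 CPM). Its Ly-6G tag median was 15 UMIs and its Il1b level 3308 CPM, against 14415 CPM in cluster 1. Being mostly of 1 library, it may be that library and not a separate state.

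**Figure D5:**
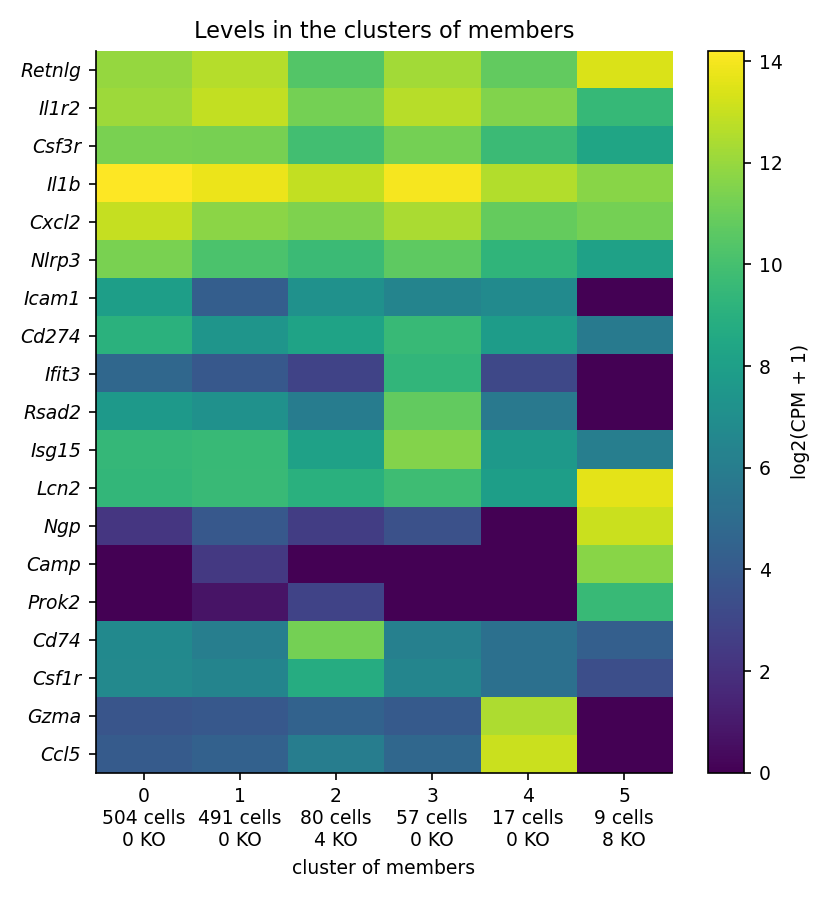
Level of 19 genes (rows) in the 6 clusters of members (columns, with their cells and KO-labelled cells), coloured by log2 of CPM plus 1. Rsad2 and Isg15 are highest in cluster 3, Cd74 and Csf1r in cluster 2, Gzma and Ccl5 in cluster 4, and Ngp, Camp and Prok2 in cluster 5.

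Members thinned to 1000 UMIs each (1136 of the WT-labelled, 10 shallower ones left out) were used to rank genes by spread. The 4 globin genes Hbb-bs, Hba-a1, Hba-a2 and Hbb-bt led by Fano factor, the variance over the mean, but Hbb-bs (275) was seen in only 4 cells. Spp1 (23.9, 23 cells), Ngp (23.4, 8 cells) and Mgp (19.5, 12 cells) also rested on few cells. S100a9 (21.4), S100a8 (14.8) and Retnlg (8.13) varied over nearly all or most members, with a UMI in 99.8%, 99.5% and 83% of them. Il1b was seen in 99.6%, Il1r2 in 91.8%, Csf3r in 85.5%, Cxcr2 in 57.5% and Isg15 in 36.5%.

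Marker lists of other lung cell types were low but not at 0 in the WT-labelled members. The T cell list summed to 63.1 CPM over 8 genes, the B cell list to 111 CPM, mostly Ighm, and the endothelial list to 81.6 CPM. The natural killer list summed to 305.6 CPM, with Gzma highest at 202.6 CPM, the dendritic list to 726.8 CPM, with Cd74 at 517.7 CPM, and the monocyte list to 518.1 CPM, with Csf1r at 156.3 CPM. Without clusters 2 and 4 these 3 sums were 18.8, 118.2 and 279.5 CPM, and the T cell, B cell and endothelial sums were 16, 107.7 and 36 CPM. The epithelial list summed to 545.4 CPM, of which Scgb1a1, a club cell secretory gene, gave 495.3 CPM, and the fibroblast list to 139 CPM, or 321 and 167.4 CPM without those clusters. The alveolar macrophage list summed to 101.3 CPM (45.6 CPM without them), and all 9 of its genes were at least 2-fold lower than in the other cells.

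Other granulocytes were nearly absent from the members. The eosinophil list summed to 13.9 CPM, with Siglecf at 10.5 CPM and Prg2 and Epx at 0, and the basophil and mast cell list to 1.22 CPM, with Mcpt8, Fcer1a, Ms4a2 and Cd200r3 at 0. The erythroid list summed to 1269 CPM and all 5 of its genes were higher than in the other cells, Hbb-bs at 538.6 CPM, from few cells as given above. Scrublet marked 35 of the 1146 WT-labelled members (3.05%) and 0 of the 12 KO-labelled ones, against 5.81% and 3.31% of all cells of their libraries. The part of doublets in these levels was not tested beyond the values without clusters 2 and 4.

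Neutrophil transcripts outside neutrophils set the background. In B-type cells labelled WT, thinned to 1000 UMIs, Retnlg gave a UMI in 0.505% (0.218 to 0.992) and S100a9 in 2.65%, at median depths of 4914 UMIs before thinning, and unthinned in 1.51% and 8.9%. S100a9 was at 313.2 CPM in them, with 15 cells at 20 UMIs or more, and at 48.4 CPM once Scrublet doublets were left out. In B-type cells labelled KO (median 4247 UMIs) S100a9 was at 14.9 CPM and Retnlg at 0 of 417 cells.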

How the data were processed

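Lung cells of 1 library labelled GFI1 KO and 1 labelled GFI1 WT were profiled with 10x 3′ chemistry and 18 antibody tags. The authors deposited raw UMI counts for 33696 genes and the tags in called cells, without normalization, made with Cell Ranger 9.0.1 on GRCm39 per the submitters' processing notes. Removal of doublets or free RNA is not given in the sources used here and reads per cell are not in the files. The study's methods describe a duplicate library for each genotype, and the duplicates were not analysed here.

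Cells were kept with at least 500 gene UMIs, at least 200 genes and at most 20% of UMIs from mt- genes (of 10700 KO-labelled and 19515 WT-labelled called cells). CPM used summed UMIs without 9613 ribosomal, mitochondrial and Gm genes. Intervals (95%) were exact Poisson for levels, conditional binomial for ratios and Clopper-Pearson for shares, and a count of 0 was given a floor of 3 counts. UMIs are counts of molecules, cells are not replicates, and with 1 library per label no test, SE or p-value was computed. Doublets were kept in the reported values and called with Scrublet for an alternative. Clusters used 2000 variable genes, 30 components, 15 neighbours and Leiden at resolution 0.5. Tools were Python 3.11.15, numpy 2.4.6, scipy 1.17.1, pandas 2.3.3, scanpy 1.11.5 and leidenalg 0.10.2. Scripts were tested on simulated data.

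Members and gene lists were chosen with earlier results of these data known. Genes named were those of the rule and, per list, up to 4 with the highest level, those past 8-fold against the other cells and those at 0, then the 15 highest against the other cells outside the lists, the 10 highest and lowest against monocyte-type cells, the 10 most abundant, the 10 with the highest Fano factor, the 5 leading genes of each cluster, and Gfi1, Gfi1b and Ly6g. Where a list held many such genes, the others are given as counts. Some genes that the rule names are not reported here. The threshold of 30 tag UMIs follows earlier use on these data. Alternatives changed the denominator, fold, UMI minimum, rule thresholds, doublets, depth and resolution.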

Additional observations from a re-analysis of the deposited data

How the results depend on the processing

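No paired analysis was possible because each label has 1 library, and for the same reason no replicate could be left out. Of 128 alternative values, 99 stayed close to the reported value, a level, ratio or share within its counting interval and a number of genes, cells or clusters within 1.5 times. The other 29 moved beyond that. Reversals of direction were not scored among the 128. Some directions outside these values did turn. Camp against the other cells went from 2.54-fold (2.05 to 3.12) to 0.154 times (0.0564 to 0.336) without 1 WT-labelled member. Mmp9, at 766.4 CPM in KO-labelled members, was below the 856.1 CPM of all WT-labelled members and above the 369.4 CPM of those of like depth. The share of WT-labelled cells that were members was 6.81% of cells with a Ptprc UMI and 5.47% without clusters 2 and 4, an alternative chosen after seeing the data. The Ly-6G tag was on 41.7% of KO-labelled members at 10 tag UMIs, and on 0% at 100 or without clusters 2 and 4, and on 93.2% of WT-labelled members at 100. Csf3r in WT-labelled members was 2083 CPM over all gene UMIs, 2325 without Scrublet doublets and 2543 without clusters 2 and 4, and Il1b was 13884, 15399 and 16740 CPM, or 14600 CPM with 1 exclusion UMI allowed. S100a9 in B-type cells labelled WT was 48.4 CPM without doublets. Genes higher and lower than in monocyte-type cells numbered 445 and 1541 at 4-fold and 3012 and 6808 with no minimum above 1 UMI, and 2629 were lower at 100 UMIs. Against the other cells 474 were higher and 6987 lower at 4-fold. Against WT-labelled members, KO-labelled ones were higher at 1262 genes, at 259 when set beside members of like depth (also chosen after seeing the data) and at 821 without clusters 2 and 4. Beside the 19 like-depth cells outside those clusters 320 were higher and 501 lower, in place of 1764 lower, with 1781 genes tested and not 7034. The ratio of KO-labelled to WT-labelled members without 1 WT-labelled cell was 539.1 for Ngp, 971.2 for Camp and 83.2 for Ltf, in place of 99.3, 58.9 and 38.7. The KO-labelled cell with the most UMIs of these genes was kept in. Resolution 1.0 gave 10 clusters in place of 6. Members could not be compared with granule-gene cells within the WT label under any setting run, since there were 0 outside the members. The 12 KO-labelled cells limit every level under that label, and the cause of these shifts was not tested.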
